A study of Mus musculus with 8 samples.

Results

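The FOXO transcription factors and the PI3K signalling genes that restrain or feed them were followed in CD4 single-positive (CD4SP) thymocytes, the T cells of the thymus that have committed to the CD4 lineage after selection. The 9 genes were the FOXO factors Foxo1, Foxo3 and Foxo4, the PI3K subunits Pik3cd and Pik3r1, the adaptor Irs2, the PI3K inhibitor Pik3ip1, the phosphatase Inpp5d and the stress protein gene Sesn3. They were chosen by symbol among 22180 genes with a probe set of 1 gene symbol, and each was read from its brightest such probe set over all arrays. Of the 9, Foxo1 alone had more than 1 probe set, 2 in all. All 9 genes passed the filter on low values, a mean log2 intensity of at least 5.56, and so were among the 11585 genes tested.

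The samples were 8 arrays of sorted CD4SP thymocytes on a C57BL/6 background, 4 labelled WT and 4 labelled Pggt1b_KO (KO below). Pggt1b encodes the catalytic subunit of an enzyme that attaches an isoprenoid lipid, a product of mevalonate metabolism, to small GTPases, and the study asked how this modification bears on the exit of thymocytes from the thymus. Each sample's RNA, a small amount, was amplified and hybridised to 1 array. The sources used here do not give the age of the mice, the part of Pggt1b deleted, the cells that lost it or whether replicates were separate animals. The p-values therefore cover the spread between these arrays alone, which may be technical.

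PI3K is recruited to receptors and adaptors at the plasma membrane, where its catalytic subunit makes a phosphoinositide that activates the kinase AKT. AKT phosphorylates FOXO proteins, which then leave the nucleus and stop driving their target genes. In T cells FOXO1 drives Klf2, and through it the receptor S1pr1 needed to leave the thymus, as well as genes of quiescence, survival and homing. FOXO proteins are controlled mostly by phosphorylation and location, neither of which an RNA measurement shows.

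Facts of the whole series set the scale. The RNA of Pggt1b stood at log2 8.29 to 8.38 in WT and at 7.57 to 7.89 in KO, a difference of -0.59 ± 0.072 (SE, adjusted p = 0.00141, limma with Benjamini-Hochberg adjustment, the test used throughout), with no KO array as high as any WT array. Whether this probe set lies in the deleted part is not known here. Of all genes tested, 515 were higher and 988 lower in KO at an adjusted p under 0.05, so that 34.3% of calls were higher. This split followed the scaling, with 22.5% higher when each array was centred on its median over all probe sets, 49.5% after a second quantile normalization and 58.3% when each array was centred on the median of its tested genes. The median difference of all tested genes was -0.03 log2. The T cell markers Cd4, Cd3d, Cd3e and Cd3g were bright in these cells, with means from 11.01 to 12.54. Of the CD8 and double-positive thymocyte genes, Cd8a averaged 9.11 and Cd8b1 10.52, and all 7 with a probe set passed the filter. Erythroid markers stood below the filter. Of 6 B cell, 9 myeloid and dendritic and 9 stromal markers, 2, 3 and 5 lay above it, among them Ighm and Pecam1, both called higher in KO. Pecam1 averaged 10.83, whereas the other stromal markers averaged 4.05 to 6.47. The mean of the stromal list overlapped between the genotypes, at 6.10 to 6.14 in WT and 6.05 to 6.19 in KO.

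Among the 9 genes, Pik3ip1 and Irs2 rose in KO and Sesn3 fell, while the RNA of Foxo1, Foxo3 and Foxo4 did not pass the test in either direction. Across all genes 13.0% were called, 4.45% higher and 8.53% lower. The genotypes did not overlap in 4 of the 9 genes, with KO above WT for Pik3ip1, Irs2 and Foxo4 and below it for Sesn3. Over all tested genes 20.3% were so separated, 6.79% with KO above and 13.5% with KO below. In each of the 4, the exact permutation test over the 8 arrays gave the smallest two-sided p this design allows, 0.0286. The counts describe the 9 genes and do not set them apart from the rest. In RNA of a sorted population, fewer cells of a type and less RNA per cell cannot be told apart.

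**Figure D1:**
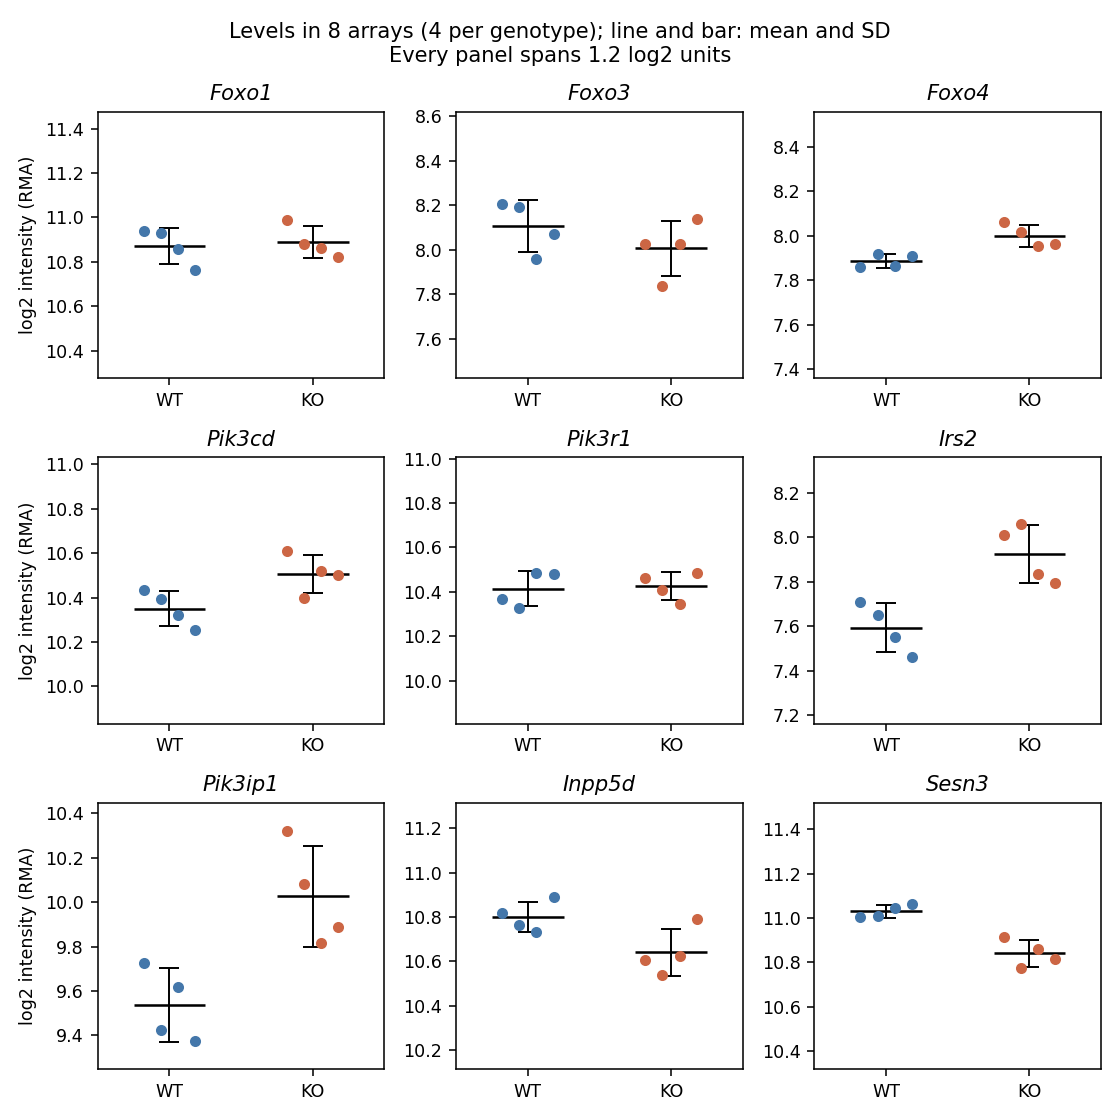
Log2 intensity of each of the 9 genes in the 4 WT (blue) and 4 KO (orange) arrays, with mean and SD, in panels of equal height. The KO points of Pik3ip1, Irs2 and Foxo4 sit above all WT points and those of Sesn3 below, while the points of the other 5 genes overlap.

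Foxo1, the FOXO factor that drives Klf2 in T cells, was level between the genotypes. Its log2 intensity was 10.94, 10.93, 10.86 and 10.76 in the WT arrays and 10.99, 10.88, 10.86 and 10.82 in the KO arrays. The arrays of the genotypes covered almost the same range. The means were 10.87 ± 0.081 and 10.89 ± 0.072 (SD, n = 4 each), and the difference was 0.02 with a 95% confidence interval from -0.12 to 0.15 (limma adjusted p = 0.891). Its sign turned to -0.02 when arrays were centred on their median over all probe sets. The dimmer Foxo1 probe set gave -0.04, from means of 7.40 and 7.36.

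Foxo3, a second FOXO factor of lymphocytes, stood at 8.21, 8.19, 7.96 and 8.07 in WT and at 8.03, 7.84, 8.03 and 8.14 in KO. The ranges overlapped and the difference of -0.10 had an interval from -0.27 to 0.08 (limma adjusted p = 0.440). Foxo4, the X-linked member of the family, stood at 7.86, 7.92, 7.86 and 7.91 in WT and at 8.06, 8.02, 7.95 and 7.97 in KO. All 4 KO arrays lay above the WT arrays, but by little. Its difference was 0.11 ± 0.046 (SE, interval from 0.0071 to 0.21) and missed the threshold after adjustment (limma adjusted p = 0.147), while a second quantile normalization brought it to 0.16 (adjusted p = 0.0451). Foxo6, the remaining paralog, averaged 5.41 and was not tested.

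The class I PI3K genes in the set did not pass the test. Pik3cd, the catalytic delta subunit of leukocytes, was at 10.44, 10.39, 10.32 and 10.25 in WT and at 10.61, 10.40, 10.52 and 10.50 in KO. Only KO replicate 2 lay within the WT range. The difference was 0.16 ± 0.061 (SE, interval from 0.02 to 0.29, limma adjusted p = 0.122). Pik3r1, the regulatory alpha subunit that stabilises the catalytic subunits and holds them inactive, was at 10.37, 10.33, 10.48 and 10.48 in WT and at 10.46, 10.41, 10.35 and 10.48 in KO. These values overlapped throughout, with a difference of 0.01 (interval from -0.11 to 0.14, adjusted p = 0.915) that became -0.02 with arrays centred on their median over all probe sets.

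Irs2, an adaptor that recruits PI3K to insulin, IGF1 and cytokine receptors and whose gene is a FOXO target in mouse liver, rose 1.26-fold. It stood at 7.71, 7.65, 7.55 and 7.46 in WT and at 8.01, 8.06, 7.83 and 7.80 in KO. Every KO array was above every WT array. The means were 7.59 ± 0.11 and 7.93 ± 0.13 (SD, n = 4 each) and the difference 0.33 ± 0.078 (SE, interval from 0.16 to 0.51, limma adjusted p = 0.0237). The call was lost when KO 1, KO 2, WT 3 or WT 4 was dropped (replicate numbers), with an adjusted p of up to 0.0688 and a difference of at least 0.29.

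Pik3ip1, a transmembrane inhibitor of the PI3K catalytic subunits and a FOXO1 target in T cells, rose 1.40-fold. It stood at 9.73, 9.43, 9.62 and 9.37 in WT and at 10.32, 10.08, 9.81 and 9.89 in KO. The lowest KO array, replicate 3, lay little above the highest WT array, replicate 1, and KO replicate 1 was the highest of all. The means were 9.54 ± 0.17 and 10.03 ± 0.23 (SD, n = 4 each) and the difference 0.49 ± 0.12 (SE, interval from 0.23 to 0.75, limma adjusted p = 0.0256). The call was lost when KO 1, KO 2, WT 2 or WT 4 was dropped, with an adjusted p of up to 0.0688 and a difference of at least 0.39.

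Inpp5d encodes SHIP1, a phosphatase of blood cells that removes a phosphate from the lipid product of PI3K. It was at 10.82, 10.76, 10.73 and 10.89 in WT and at 10.61, 10.54, 10.62 and 10.79 in KO. KO replicate 4 lay within the WT range and the other KO arrays below it. The difference of -0.16 ± 0.064 (SE, interval from -0.30 to -0.02) missed the threshold (limma adjusted p = 0.134).

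Sesn3, a sestrin that restrains mTORC1 and a FOXO target in mouse and human cells, fell 1.14-fold. It stood at 11.01, 11.01, 11.05 and 11.06 in WT and at 10.91, 10.77, 10.86 and 10.82 in KO. The WT arrays lay close together and every KO array was below them. The means were 11.03 ± 0.029 and 10.84 ± 0.060 (SD, n = 4 each) and the difference was -0.19 ± 0.048 (SE, interval from -0.30 to -0.08, limma adjusted p = 0.0317). The call was lost when WT 2, WT 3, WT 4, KO 2, KO 3 or KO 4 was dropped (adjusted p up to 0.0751), without the filter on low values (0.0801), with a linear term for the number in each title (0.0531), with arrays centred on the median of their tested genes (0.0914), and when both WT 2 and WT 3 were dropped (0.172). The difference stayed between -0.22 and -0.14 in all 22 alternatives.

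**Figure D2:**
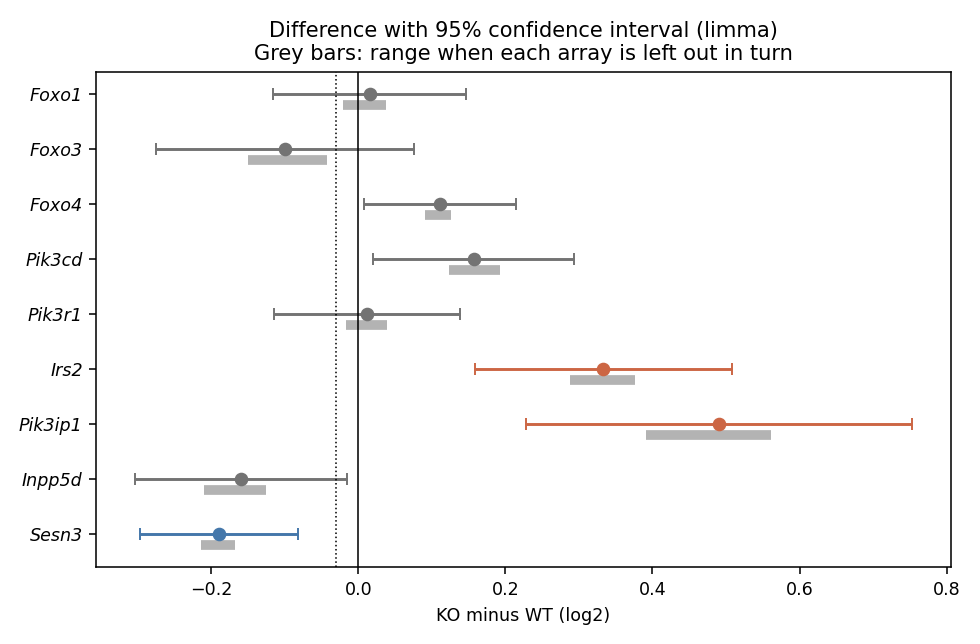
KO minus WT difference of the 9 genes on the log2 scale, with 95% confidence intervals, called genes in colour, the range over leaving out each array as grey bars, and the median of all tested genes as a dotted line. The grey bars of Pik3ip1 (0.39 to 0.56), Irs2 (0.29 to 0.38) and Sesn3 (-0.21 to -0.17) stay clear of 0, and those of Foxo1 and Pik3r1 straddle it.

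The promoters of the 3 called genes are shown because each is a reported FOXO target. RefSeq windows of GRCm38.p6, from 250 bases before to 50 after the annotated start, were found for 8 of the 9 genes, in 11 windows. They were searched on both strands for the forkhead consensus GTAAACA and for CAAAACA, the core of the insulin response element. Capitals mark CAAAACA, read here on the opposite strand, and the E-box CACGTG beside it, a motif added after the sequence was seen.
Irs2, chr8:11008880-11009179, - strand: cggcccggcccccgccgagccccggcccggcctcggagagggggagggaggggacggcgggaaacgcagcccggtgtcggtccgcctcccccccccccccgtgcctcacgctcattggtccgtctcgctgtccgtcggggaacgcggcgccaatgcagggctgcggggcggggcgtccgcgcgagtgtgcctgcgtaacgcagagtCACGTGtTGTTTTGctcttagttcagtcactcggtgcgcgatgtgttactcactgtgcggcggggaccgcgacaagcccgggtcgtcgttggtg
Pik3ip1, chr11:3330481-3330780, + strand: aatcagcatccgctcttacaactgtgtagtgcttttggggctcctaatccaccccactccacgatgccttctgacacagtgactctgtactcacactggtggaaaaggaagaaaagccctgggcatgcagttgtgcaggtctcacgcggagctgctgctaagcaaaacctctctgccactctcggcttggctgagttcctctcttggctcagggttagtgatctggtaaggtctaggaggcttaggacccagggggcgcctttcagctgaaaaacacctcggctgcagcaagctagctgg
Sesn3, chr9:14276051-14276350, + strand: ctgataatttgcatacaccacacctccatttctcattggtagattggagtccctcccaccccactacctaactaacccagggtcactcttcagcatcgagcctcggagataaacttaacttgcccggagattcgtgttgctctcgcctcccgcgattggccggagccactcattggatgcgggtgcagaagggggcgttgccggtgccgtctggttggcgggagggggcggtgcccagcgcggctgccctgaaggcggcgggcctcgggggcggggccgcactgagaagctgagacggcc
The Irs2 window held CAAAACA from 37 to 31 bases before the start, with an E-box from 44 to 39 bases before it. The other 10 windows held neither FOXO-type motif. Of all 32851 windows in the table, 3.65% held GTAAACA, 6.28% CAAAACA, 9.63% at least 1 of both and 7.15% the E-box. A match in a window is a description of its letters and not a measured binding site.

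The patterns nearest to the 2 risen genes were sought among all tested genes, as the smallest root-mean-square distance over the 8 arrays after centring each gene on its own mean. For Pik3ip1 they were Sesn1, at 0.080 log2, Crebrf, at 0.087, and Txnip, at 0.090, against a spread of Pik3ip1 itself of 0.30. Sesn1 and Txnip had also been listed as FOXO targets. For Irs2 they were Sun1, at 0.054, Hspbap1, at 0.061, and Gpr183, at 0.065, against a spread of 0.20. The distances describe these 8 arrays, which share the genotype difference.

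The heat-shock level of the arrays went with the size of both rises within KO. The mean of the heat-shock genes Hspa1a and Hspa1b was 5.27, 6.36, 8.58 and 6.74 in the WT arrays and 10.34, 9.79, 4.57 and 8.25 in the KO arrays. KO replicates 1 and 2, the arrays with the highest heat-shock level, were the highest in Pik3ip1 and in Irs2, while within WT the lowest heat-shock level, in replicate 1, went with the highest Pik3ip1 and Irs2. Adjusted for the heat-shock level, the differences were 0.41 for Pik3ip1, 0.31 for Irs2 and -0.19 for Sesn3, and none of them was called (limma adjusted p = 0.0637, 0.0662 and 0.0689, with 4 of the 9 genes at an unadjusted p under 0.05). On dropping both KO 1 and KO 2 they were 0.32, 0.22 and -0.19 (adjusted p = 0.167, 0.195 and 0.128). KO replicate 3 had the lowest heat-shock level of all arrays and the lowest or next lowest KO level of both rising genes. The part of the heat-shock level in these differences was not tested beyond these values.

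**Figure D3:**
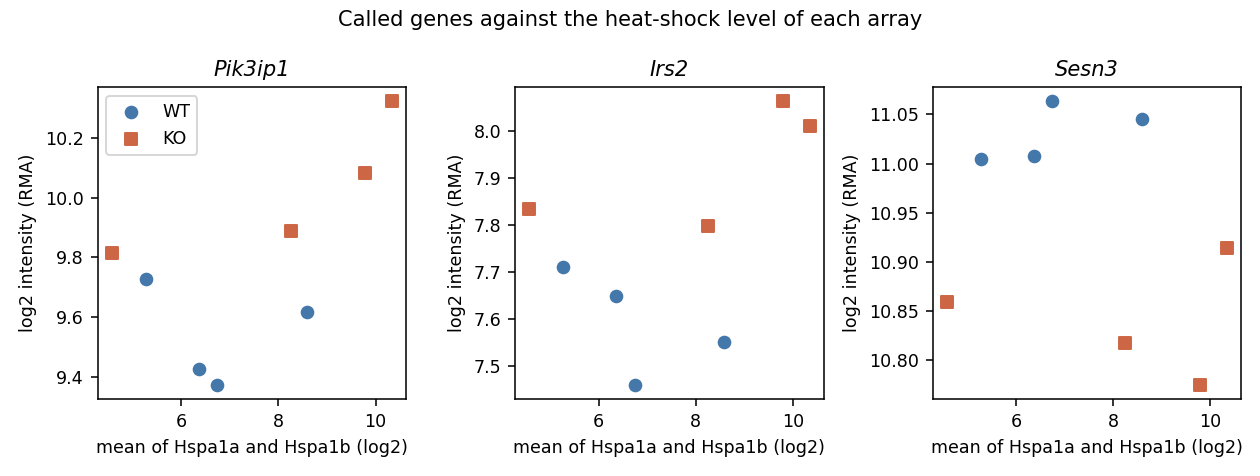
Log2 intensity of Pik3ip1, Irs2 and Sesn3 against the mean of Hspa1a and Hspa1b in each array, WT as circles and KO as squares. The KO square at the lowest heat-shock level, 4.57, has Pik3ip1 at 9.81 and Irs2 at 7.83, above every WT circle.

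The mean level of several marker lists also differed between the genotypes. For scale, 13.0% of all tested genes were called, 4.45% higher and 8.53% lower. The CD4SP list lay at 11.18 to 11.23 in WT and 11.11 to 11.15 in KO. All 10 members were lower in KO by their means, but their median difference, -0.036 log2, was near that of all tested genes, -0.030. Only 1 member was called, Gata3, a factor of the CD4 lineage, which fell by 0.26 (limma adjusted p = 0.0144). The B cell list lay at 6.202 to 6.316 in WT and 6.321 to 6.449 in KO, so that the genotypes were barely apart. Ighm, the heavy chain of IgM, read from the brightest of its 7 probe sets, was higher by 0.68 (limma adjusted p = 0.000122). The other tested member, Cd79b, differed by 0.05 and was not called. Below the filter, Cd79a differed by 0.15, Ms4a1 by 0.0086, Pax5 by -0.08 and Blk by -0.11. The list of CD8 and double-positive thymocyte genes lay at 8.02 to 8.24 in WT and 7.67 to 7.97 in KO, with 1 of 7 members (14.3%) called lower. That member, Cd8a, fell by 0.74 (limma adjusted p = 0.0354). The regulatory T cell list lay at 8.76 to 8.94 in WT and 8.50 to 8.72 in KO, with 2 of 6 (33.3%) called lower. Tnfrsf4 fell by 0.49 (limma adjusted p = 0.00548) and Tnfrsf18 by 0.32 (adjusted p = 0.00979). Ctla4, Ikzf2 and Il2ra differed by -0.30, -0.29 and -0.13 and were not called. Foxp3 alone in this list stood higher in KO, by 0.17, and was not called (adjusted p = 0.505). The mean of the innate-like and effector T cell list overlapped, from 5.55 to 6.25 in WT and 5.83 to 5.93 in KO. Of its 5 tested members 3 were called, in opposite directions (20.0% higher and 40.0% lower). Klrd1, an NK cell receptor chain and the only member called higher, rose by 2.90 (limma adjusted p = 0.000145). It stood at 4.65, 4.85, 4.71 and 5.90 in WT and at 7.93, 7.78, 7.82 and 8.20 in KO. Its WT mean, 5.03, lay below the filter on low values, which the gene passed through its KO arrays. The granule gene Nkg7 fell by 0.83 (adjusted p = 0.0179) and Zbtb16, a factor of innate-like T cells, by 0.69 (adjusted p = 0.0453). The mean of the heat-shock and dissociation list overlapped as well, from 7.59 to 8.29 in WT and 7.44 to 8.80 in KO. Of its 11 tested members 2 were called (18.2%), the immediate early genes Jun and Egr1. Jun was higher by 0.91 (limma adjusted p = 0.0288) and Egr1 lower with a difference of -0.36 (adjusted p = 0.00733). The part of these shifts in the values of the 9 genes was not tested.

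The other genes of the pathway were read from lists in the same fit. Of 8 tested class I PI3K subunits 0 rose and 2 fell (1 was higher and 2 were lower at an unadjusted p under 0.05), against 4.45% higher and 8.53% lower over all genes. Pik3r3, the regulatory gamma subunit, fell 1.74-fold, from 8.15, 8.52, 8.28 and 8.50 in WT to 7.65, 7.35, 7.67 and 7.57 in KO (log2 difference -0.80 ± 0.098 SE, limma adjusted p = 0.00139). Pik3cg, the gamma catalytic subunit that acts below G protein-coupled receptors, fell 1.31-fold, from 9.47, 9.66, 9.65 and 9.65 to 9.15, 9.17, 9.34 and 9.20 (-0.39 ± 0.064 SE, adjusted p = 0.00515). In both genes every KO array lay below every WT array, and both calls held when any single array was left out. Pik3ca, the ubiquitous catalytic subunit, differed by 0.0018, Pik3cb by 0.16, Pik3r2 by -0.13 and Pik3r5, the partner of Pik3cg, by 0.11, and none of the 4 was called. Pik3r6 averaged 5.44 and was not tested.

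Of 12 tested receptors and adaptors upstream of PI3K, 4 rose and 1 fell, Irs2 included, and the median difference was 0.02. These were 33.3% higher and 8.33% lower, against 4.45% and 8.53% over all genes, so that the share lower was near that of all genes. Igf1r, the receptor for IGF1, rose 1.45-fold, from 8.27, 8.49, 8.26 and 8.34 in WT to 9.18, 8.65, 8.75 and 8.94 in KO (0.54 ± 0.11 SE, limma adjusted p = 0.0131), and the call held without any single array. Trat1, a T cell adaptor that binds the regulatory subunit of PI3K, rose by 0.30 (adjusted p = 0.00637) and Gab3, a docking adaptor, by 0.35 (adjusted p = 0.0421). Sit1, an adaptor that recruits the phosphatase SHP2, fell by 0.23 on the log2 scale (adjusted p = 0.0249). Insr, the insulin receptor, stood 0.19 higher (adjusted p = 0.123) and Cd28, the costimulatory receptor, at -0.0052 relative to WT (adjusted p = 0.964), while Irs1 averaged 4.65 and was not tested. Gab3 lost its call when any array but WT 2 or WT 4 was dropped (adjusted p up to 0.110), and Sit1 when KO 1, KO 2, WT 2 or WT 3 was (up to 0.0688).

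Of 12 tested phosphatases and inhibitors listed around the PI3K pathway, not all of them brakes on PI3K, 3 rose and 1 fell, Pik3ip1 included. Their median difference was -0.02. The share lower, 8.33%, was near the 8.53% of all genes, of which 4.45% were higher. Inpp5a, which acts on soluble inositol phosphates, rose 1.34-fold (0.43 ± 0.072 SE, limma adjusted p = 0.00614), and every KO array, from 8.11 to 8.30, lay above the WT arrays, from 7.60 to 7.90. Inpp4a, which removes a different phosphate from PI3K lipids, rose 1.22-fold (0.29, adjusted p = 0.0211), with KO arrays from 9.75 to 10.01 and WT arrays from 9.51 to 9.69. Ptpn11, the gene of the phosphatase SHP2, fell by 0.18 (adjusted p = 0.0431). Inppl1, the paralog of Inpp5d, differed by -0.07 and Inpp4b by 0.04, and neither was called. Inpp4a lost its call when KO 1, KO 4, WT 2 or WT 3 was dropped (adjusted p up to 0.0616), and Ptpn11 when any array but WT 1 was (up to 0.111).

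Among 31 tested genes of the AKT, PDK1 and mTOR relay, 2 rose and 2 fell, with a median difference of -0.03, as over all genes. The share called, 12.9%, was also near the 13.0% of all genes. The sestrins did not move together. Sesn1, also a p53 target, rose 1.40-fold, from 10.07, 9.73, 10.02 and 9.85 in WT to 10.61, 10.36, 10.27 and 10.37 in KO (0.49 ± 0.092 SE, limma adjusted p = 0.0102), whereas Sesn3 fell as above and Sesn2 differed by -0.26 and was not called (adjusted p = 0.260). Rictor, the defining subunit of mTORC2 and a FOXO target in other cells, rose 1.17-fold (0.23 ± 0.046 SE, adjusted p = 0.0127), with KO arrays from 10.37 to 10.48 and WT arrays from 10.17 to 10.22. The calls of Sesn1 and Rictor held without any single array. Tbc1d7, a subunit of the TSC complex that restrains mTORC1, fell by 0.45 (adjusted p = 0.0340), a call lost when WT 1, WT 2, WT 3, KO 1 or KO 4 was dropped (adjusted p up to 0.0874). Akt1 and Akt2 differed by -0.11 and -0.05 and were not called.

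Of 21 tested modifiers and partners of FOXO proteins 1 rose and 3 fell, with a median difference of -0.01. The share higher, 4.76%, was near the 4.45% of all genes, and 14.3% were lower, beside 8.53%. Cdk1, the mitotic kinase that phosphorylates FOXO1, fell by 0.67 (limma adjusted p = 0.0189), although its arrays overlapped, since WT replicate 4 was at 7.56 and KO replicate 4 at 7.57. Prmt1, a methyltransferase that blocks AKT phosphorylation of FOXO1, fell by 0.29 (adjusted p = 0.00954) and Skp2, a ubiquitin ligase subunit that targets FOXO1, by 0.25 (adjusted p = 0.0253). Setd7, a methyltransferase of FOXO3, rose by 0.22 (adjusted p = 0.0321). The call of Prmt1 held without any single array. Cdk1 lost its call when KO 1, WT 2 or WT 3 was dropped (adjusted p up to 0.0550). Skp2 lost it when WT 2, WT 3, KO 2, KO 3 or KO 4 was (up to 0.0680), and Setd7 when any array but WT 1 or KO 2 was (up to 0.0866).

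**Figure D4:**
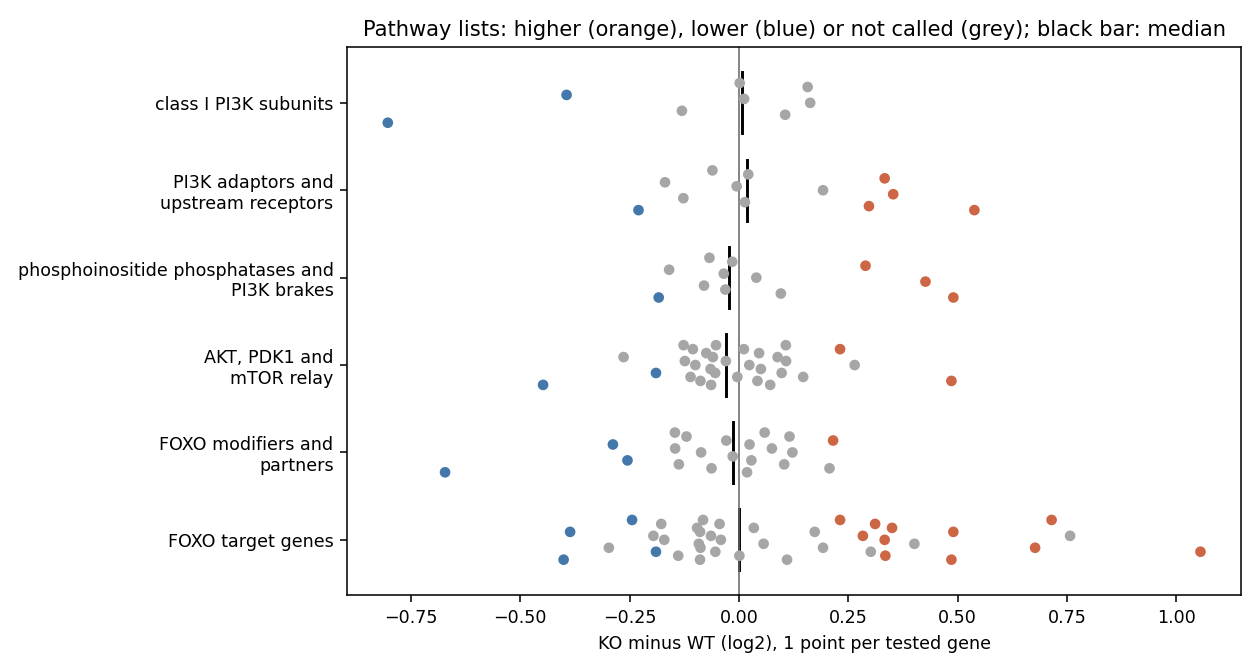
KO minus WT difference on the log2 scale of every tested gene in 6 pathway lists, 1 point per gene, orange where called higher, blue where called lower and grey otherwise, with the list median as a black bar. The medians lie between -0.03 and 0.02, and the widest points are Pik3r3 at -0.80 and Klf6 at 1.06.

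Genes described as FOXO targets in any tissue formed the last list, which shares Pik3ip1, Irs2, Insr, Sesn1, Sesn3 and Rictor with those above. Of 39 tested, 11 rose and 4 fell, that is 28.2% higher and 10.3% lower against 4.45% and 8.53% over all genes, and the median difference was 0.0011. Besides Pik3ip1, Irs2 and Sesn3, 9 more, with 5 rises and 1 fall, were listed with their values already known from these data. Of the remaining 27, 4 rose (14.8%, beside 4.45% of all genes) and 2 fell (7.41%, beside 8.53%), with a median of -0.06.

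Klf2, the factor that links FOXO1 to thymic exit, stood at 10.15, 9.87, 9.78 and 9.77 in WT and at 10.59, 10.67, 10.42 and 10.60 in KO, a rise of 0.68 ± 0.091 (SE, limma adjusted p = 0.00206). S1pr1, its target, rose by 0.31 (adjusted p = 0.00698). In both genes all KO arrays lay above all WT arrays. Ccr7, a homing receptor, differed by 0.03 (adjusted p = 0.779) and Il7r, the survival receptor, by 0.17 (adjusted p = 0.110), and neither was called.

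The list's largest rise was that of Klf6, a zinc-finger factor of the same family as Klf2, at 2.08-fold, from 10.07, 9.92, 9.95 and 9.99 in WT to 11.20, 11.08, 10.85 and 11.01 in KO (1.06 ± 0.075 SE, limma adjusted p = 7.08e-05). Cdkn1b, a cell cycle inhibitor, rose 1.22-fold (0.28 ± 0.054 SE, adjusted p = 0.0104), with KO arrays from 10.38 to 10.55 and WT arrays from 10.09 to 10.21. The pro-apoptotic Bbc3 and Pmaip1, which are p53 targets as well, rose by 0.72 (adjusted p = 0.0140) and 0.33 (adjusted p = 0.0233), and Fbxo32, a ubiquitin ligase subunit of muscle atrophy, by 0.35 (adjusted p = 0.0476).

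The falls were those of Trib1, a pseudokinase scaffold, by 0.40 (limma adjusted p = 0.00970), of the repressor Bcl6, which FOXO factors induce, by 0.39 (adjusted p = 0.0186), and of cyclin D2, Ccnd2, which FOXO factors repress, by 0.24 (adjusted p = 0.0483), besides Sesn3. Txnip, a brake on glucose uptake, stood 0.40 higher with all KO arrays above the WT arrays and was not called (adjusted p = 0.0594). Bcl2l11, the gene of BIM, differed by -0.17, Cdkn1a by 0.06, Bach2 by -0.08 and Ccng2 by -0.09, and none was called.

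The calls of Klf2, S1pr1, Klf6, Cdkn1b, Bbc3 and Trib1 held without any single array. Bcl6 lost its call when WT 2 was dropped (adjusted p = 0.0504) and Pmaip1 when KO 1, KO 3 or KO 4 was (up to 0.0565). Ccnd2 lost it when any array but WT 1 or KO 4 was dropped (up to 0.113), and Fbxo32 when any but WT 1 was (up to 0.122). The list held 10 to 15 calls when single arrays were left out, 9 after adjustment for the heat-shock level (7 higher and 2 lower), 2 on dropping both KO 1 and KO 2, and 3 on dropping both WT 2 and WT 3. With arrays centred on the median of their tested genes 12 were higher and 2 lower. The same centring moved the calls over all genes from 515 higher and 988 lower to 765 higher and 548 lower.

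**Figure D5:**
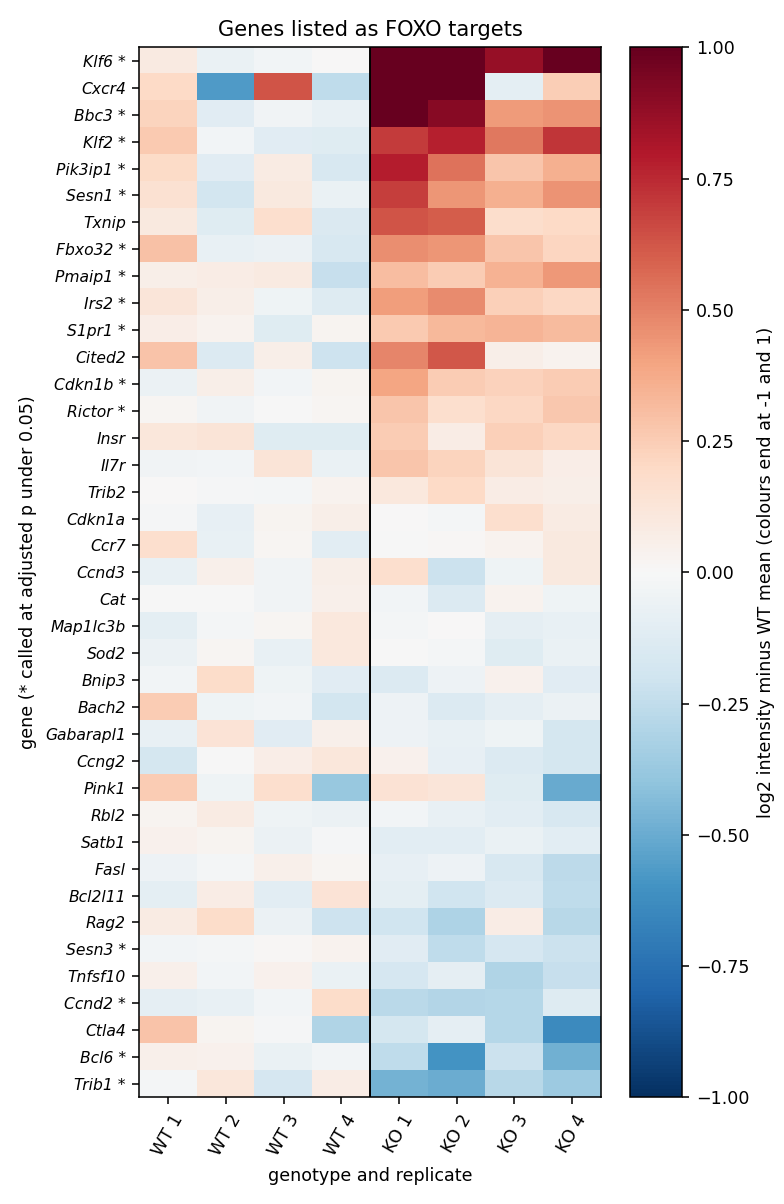
Log2 intensity minus the WT mean in each array for the 39 tested genes listed as FOXO targets, sorted by difference, with called genes starred and colours ending at -1 and 1. KO columns are red for Klf6, Bbc3, Klf2, Pik3ip1 and Sesn1 and blue for Trib1, Bcl6 and Ccnd2, with genes of little difference between them.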

How the data were processed

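The authors deposited 1 log2 intensity for each probe set and array. The submitters' processing notes name RMA and Affymetrix Expression Console 1.1. RMA corrects background, normalizes quantiles over arrays and summarises probes, which compresses differences of dim genes. The genome build behind the probe sets was not given in the sources used here. The table holds 41345 probe sets, of which 23521 have 1 symbol in the platform annotation, which can be old. Levels of different probe sets were not compared. Genes were tested from a mean of 5.56 upward, the median over all probe sets, which set 10595 aside.

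The genotypes were compared with lmFit and eBayes of limma 3.58.1 (R 4.3.3), two-sided and with genotype as the only term, with Benjamini-Hochberg adjustment over all 11585 tested genes and calls at an adjusted p under 0.05. The fit was tested on simulated data. Differences are KO minus WT in log2, and intervals are limma's. Replicate numbers follow the order of deposit. No batch label was used, and precision is limited by the 8 arrays.

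The members, gene lists and tests were chosen with earlier results of these data known, so no list is independent evidence. Named were the 9 genes, Pggt1b, every called list gene, their paralogs, FOXO targets tied to egress and homing, and the 3 nearest patterns of the 2 called genes with the largest differences. Inpp4b, Akt1, Akt2, Insr, Cd28, Bcl2l11, Cdkn1a, Bach2, Ccng2 and the marker genes were named after their values were seen. The alternatives were other filters, probe set choices, scalings, models, covariates, thresholds and arrays left out.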

Additional observations from a re-analysis of the deposited data

Results flagged for a closer look

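In 38 named genes, each genotype's 4 arrays were searched for an array that stood apart, by a gap to its nearest neighbour above Dixon's critical share of the group's range. Chance gives about 1 such array in 20 groups, and 76 groups gave 5. None was in the 9 genes. Pik3cg in WT replicate 1 was low, at 9.47 against 9.65 to 9.66 in the other WT arrays, and still above every KO array. Skp2 in KO replicate 1 was high, at 7.83 against 7.61 to 7.63 in the other KO arrays. Cdkn1b in KO replicate 1 was also high, at 10.55 against 10.38 to 10.41. Ccnd2 in KO replicate 4 was high, at 11.74 against 11.58 to 11.61. Pmaip1 in WT replicate 4 was low, at 5.55 against 5.83 to 5.87.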

How the results depend on the processing

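No paired analysis was possible because the labels give the arrays no shared replicate numbers. Of the 9 genes, Foxo3, Pik3cd and Inpp5d kept their direction and stayed uncalled in all 22 alternatives, and Pik3ip1, Irs2 and Sesn3 kept theirs in all 22 but lost the call in 8, 8 and 13. The count of called genes among the 9, 3 as reported, was 0 to 3 when single arrays were left out. It was 0 without KO 2 or WT 4 (limma, with 4 genes each at an unadjusted p under 0.05), with the heat-shock covariate, at an adjusted p under 0.01, on dropping both KO 1 and KO 2, and on dropping both WT 2 and WT 3 (4, 6, 3 and 4 genes at an unadjusted p under 0.05). The sign of Foxo1 and Pik3r1, both near 0, varied between alternatives. Leaving out arrays or adding a covariate also leaves fewer degrees of freedom.

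Over all genes the 1503 calls became 813 to 1441 without single arrays, 920 with no filter, 874 with the heat-shock covariate, 446 at 0.01, 258 without both KO 1 and KO 2, and 295 without both WT 2 and WT 3. Without single arrays the class I subunits kept 2 calls, upstream adaptors had 2 to 4, phosphatases 1 to 4, the AKT and mTOR relay 2 to 3, FOXO modifiers 1 to 4 and FOXO targets 10 to 15. With no filter the adaptors had 3, the relay 2 and the modifiers 2. With the heat-shock covariate the adaptors had 2, the phosphatases 1, the relay 2, the modifiers 2 and the targets 9. With the sample number as a covariate the relay had 2. At 0.01 the adaptors, phosphatases, relay, modifiers and targets had 1, 1, 0, 1 and 4. Without both KO 1 and KO 2 the subunits, adaptors, phosphatases, relay, modifiers and targets had 1, 1, 0, 0, 1 and 2. Without both WT 2 and WT 3 they had 1, 0, 0, 0, 0 and 3. With arrays centred on the median of their tested genes, a setting chosen after the data were seen, 2 of the 9 genes were called, both higher. Over all genes that setting gave 765 calls higher and 548 lower. The cause of these changes was not tested.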
